A study of Homo sapiens with 12 samples.

Results

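The genes described here carry out or control the synthesis of sterols and fatty acids. A list of 38 gene symbols was matched to the symbols of the expression table. Of these, 37 were analysed, of 13881 genes in all, and ABCG1 was not analysed here. All 37 had at least 1 FPKM (fragments per kilobase of transcript, scaled to the total of the library) in at least 3 libraries and were tested together with the other genes that did, 13353 in all. ELOVL6 met that minimum through KG-1 alone and stayed below 1 FPKM in every MOLM-14 library.

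RNA was sequenced from cells labelled KG-1 and MOLM-14, the names of established lines of human acute myeloid leukaemia cells. Each line received ASLAN003, an inhibitor of the pyrimidine synthesis enzyme DHODH, or its solvent control DMSO for 96 h, in RPMI1640 medium with fetal bovine serum. The 4 groups had 3 libraries each, 12 in all, and no ASLAN003 dose is stated in the labels. The labels do not say whether the libraries of a group came from separate cultures. Every p-value sets a difference between group means against the spread between these libraries, pooled over the groups and moderated across genes. That spread may be technical.

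Cholesterol is built from acetyl-CoA through mevalonate, isoprenoids, squalene and lanosterol, whose rings are then trimmed and rearranged. The genes of these steps are switched on by the SREBP transcription factors, of which SREBF2 is mainly tied to sterols and SREBF1 mainly to fatty acids. SCAP carries the SREBP precursors out of the endoplasmic reticulum when sterols are scarce, and the INSIG proteins hold them back when sterols are plentiful. Sterol excess also yields oxysterols, which activate the LXR receptors and, through them, the efflux pump gene ABCA1 and MYLIP, whose product marks lipoprotein receptors for breakdown. Macrophages are known for their use of the efflux arm when they take up lipid.

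The members were divided by role into 7 genes of the mevalonate and isoprenoid steps, 11 of the squalene and sterol ring steps (18 sterol steps in all), 9 of fatty acid synthesis, 5 of SREBP control, 3 of sterol transport and 2 LXR targets. Promoter sequence before the annotated start was compared first, because most of the members share SREBP control. RefSeq promoter windows of GRCh38.p14, from 250 bases before to 50 bases after the start, were found for 33 of the 38 symbols. For 19 of the 33, the bases just after the RefSeq start lay among the first bases of a GENCODE 29 transcript of the gene, and motif counts depend on which start is used. The sterol regulatory element core TCACNCCAC, searched on both strands, was present in 1 of the 33 windows against 1.13% of all 35116 windows of the promoter reference. This window belonged to SREBF2, where the match began 133 bases before the start. The GC box GGGCGG, the motif of Sp1-type factors, occurred in 30 of 33 windows (90.9%) against 45% of all. The CCAAT box CCAAT, the motif of the NF-Y complex, occurred in 12 of 15 windows of the sterol steps (80%) and in 4 of 8 windows of fatty acid synthesis (50%), against 34.6% of all. The nuclear receptor motif AGGTCA was found in 1 member window, that of ELOVL6, against 13.8% of all. No member window held AGGTCA as 2 direct copies with 4 bases between them, the arrangement bound by LXR, which 0.0199% of all windows held and which also counts under the single motif. The 35116 windows were not limited to genes of the expression table, so differences from their shares need not be particular to these members. A match describes letters in a window and not a bound site, and a missing match says only that these letters are not in the window.

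The sequences shown are those of the members with the largest called falls in KG-1 (INSIG1, SCD, HMGCS1, FADS2 and LSS), the largest called rises in MOLM-14 (SC5D and MSMO1), among the matched symbols, and the SREBF2 window with the sterol regulatory element core. Each run is read 5′ to 3′ in the direction of the gene and ends at the last base before the RefSeq start, with 120 bases for each gene and 140 for SREBF2. Capitals mark matches to the CCAAT box, the GC box or the sterol regulatory element core on either strand. The windows are chr7:155297758-155297877 on the plus strand for INSIG1, chr10:100347113-100347232 on the plus strand for SCD, chr5:43313413-43313532 on the minus strand for HMGCS1 and chr11:61816083-61816202 on the plus strand for FADS2. They are chr21:46228775-46228894 on the minus strand for LSS, chr11:121292651-121292770 on the plus strand for SC5D, chr4:165327549-165327668 on the plus strand for MSMO1 and chr22:41832965-41833104 on the plus strand for SREBF2. The LSS run holds 5 GC boxes, the INSIG1 and SCD runs hold 2 GC boxes each, and the FADS2 run holds none of the 3 motifs. The HMGCS1 and SC5D runs hold 1 CCAAT box each, and the MSMO1 run holds 2 CCAAT boxes and 1 GC box. These genes were picked by their changes, and how the motifs relate to the changes was not tested. The FADS2 window lies inside the annotated span of FADS1 and well inside that of FADS2, which begins at 61792980 in GENCODE 29.
INSIG1: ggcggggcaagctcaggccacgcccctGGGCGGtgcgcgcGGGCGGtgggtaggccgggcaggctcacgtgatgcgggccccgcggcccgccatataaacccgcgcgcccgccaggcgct
SCD: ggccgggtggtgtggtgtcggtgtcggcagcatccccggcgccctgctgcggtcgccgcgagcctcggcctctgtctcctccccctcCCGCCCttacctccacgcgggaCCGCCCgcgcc
HMGCS1: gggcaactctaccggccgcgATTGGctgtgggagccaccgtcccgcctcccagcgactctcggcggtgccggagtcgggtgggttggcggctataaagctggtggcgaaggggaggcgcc
FADS2: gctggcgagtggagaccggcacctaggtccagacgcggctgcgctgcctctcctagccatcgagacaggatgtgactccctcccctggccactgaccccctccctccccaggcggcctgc
LSS: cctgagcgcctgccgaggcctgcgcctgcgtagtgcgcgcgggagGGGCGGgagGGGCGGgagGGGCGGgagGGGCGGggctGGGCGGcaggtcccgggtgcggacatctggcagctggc
SC5D: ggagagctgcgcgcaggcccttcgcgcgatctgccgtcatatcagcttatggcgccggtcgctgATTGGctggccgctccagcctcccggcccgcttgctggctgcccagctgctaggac
MSMO1: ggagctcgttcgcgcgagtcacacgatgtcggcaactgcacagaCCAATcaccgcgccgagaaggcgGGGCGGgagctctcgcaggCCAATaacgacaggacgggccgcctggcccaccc
SREBF2: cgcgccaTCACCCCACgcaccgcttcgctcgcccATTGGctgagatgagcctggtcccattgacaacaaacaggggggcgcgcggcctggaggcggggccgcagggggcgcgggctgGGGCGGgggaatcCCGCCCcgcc

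The libraries were alike in depth, estimated from the steps between low values at 17550000 to 18350000 fragments, so that 1 FPKM on a transcript of 2000 bases stands for 35.1 to 36.7 fragments. Ribosomal protein genes took 25.9% to 27.0% of the listed FPKM in KG-1 DMSO and 15.4% to 16.5% after ASLAN003, and 34% to 34.7% and 22.9% to 28.1% in MOLM-14. MOLM-14 ASLAN003 replicate 1 stood apart from the rest of its group, at 36.2 on the second principal component (16.3% of the variance) against 14.6 and 9.37. The MOLM-14 counts and calls of the members are therefore also given without it, whereas those of other genes are not. All 6 myeloid markers (PTPRC, CD33, SPI1, CEBPA, MPO and LYZ) were above 1 FPKM in every library. Their sum, most of it LYZ in the treated libraries, went from 608 to 649 FPKM in KG-1 DMSO to 1422 to 1483 FPKM after ASLAN003 and from 1169 to 1248 FPKM to 3416 to 4718 FPKM in MOLM-14, with LYZ higher and MPO lower in every treated library of each line than in its DMSO libraries. The markers chosen for KG-1 did not mark the libraries labelled KG-1: CD34 reached no more than 0.17 FPKM anywhere, and FGFR1 stood at 3.67 to 4.49 FPKM in libraries labelled KG-1 against 49.4 to 63.3 FPKM in those labelled MOLM-14. The identity of the line labelled KG-1 is therefore uncertain, and the names are used here as labelled. HOXA9, MEIS1 and FLT3, chosen for MOLM-14, summed to 186 to 206 FPKM in MOLM-14 and 30.4 to 56.4 FPKM in KG-1. T cell markers summed to at most 0.22 FPKM, and no erythroid marker of 4 was listed. CD79A, the listed B cell marker of 4, stood at 0.84 to 1.98 FPKM in KG-1 DMSO and 5.57 to 7.71 FPKM after ASLAN003, and at most 0.45 FPKM in MOLM-14. Epithelial markers, of which 3 of 4 were listed, summed to 18.2 to 36.3 FPKM over all libraries, and the fibroblast marker COL1A1, 1 of 4, to 0.49 to 10.7 FPKM. Of 6 macrophage and foam cell markers 3 were listed (CD14, CD68 and CD36). Their sum was 58.5 to 73.9 FPKM in KG-1 DMSO and 177 to 269 FPKM after ASLAN003, and 59.9 to 82.0 FPKM and 136 to 202 FPKM in MOLM-14. By limma, LYZ, SPI1, CD68 and CD36 were called higher and MPO lower in each line. PTPRC was called higher and CEBPA lower in KG-1, and CD33 was called in neither. CD14 met the minimum of 1 FPKM in 3 libraries only through the treated KG-1 libraries. Its level there, 2.38 to 4.93 FPKM against 0.18 to 0.49 FPKM in KG-1 DMSO, is therefore a description. The part of these markers in the results was not tested. In such bulk RNA, fewer cells of a type and less RNA per cell cannot be told apart.

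In KG-1 most of the members were lower after ASLAN003, whereas in MOLM-14 part of the sterol branch rose. Of the 37 members, 23 were called lower and 1 higher in KG-1 (limma adjusted p under 0.05), where 14.3% of all tested genes were called lower and 19.4% higher. In MOLM-14, 8 members were called higher and 0 lower, where 9.69% of all tested genes were called higher and 3.33% lower. The count of 0 lower is near the share of all genes, and the 8 rises became 2 without ASLAN003 replicate 1. At an unadjusted p under 0.05 by limma, 1 member was lower in MOLM-14, namely ELOVL6, which stayed below 1 FPKM in every MOLM-14 library. Because the members were chosen with earlier results of these data known, such counts partly restate that choice. The treated libraries were all below the DMSO libraries for 25 members in KG-1, against 24.5% of all tested genes, and all above them for 10 members in MOLM-14, against 17.7%.

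**Figure D1:**
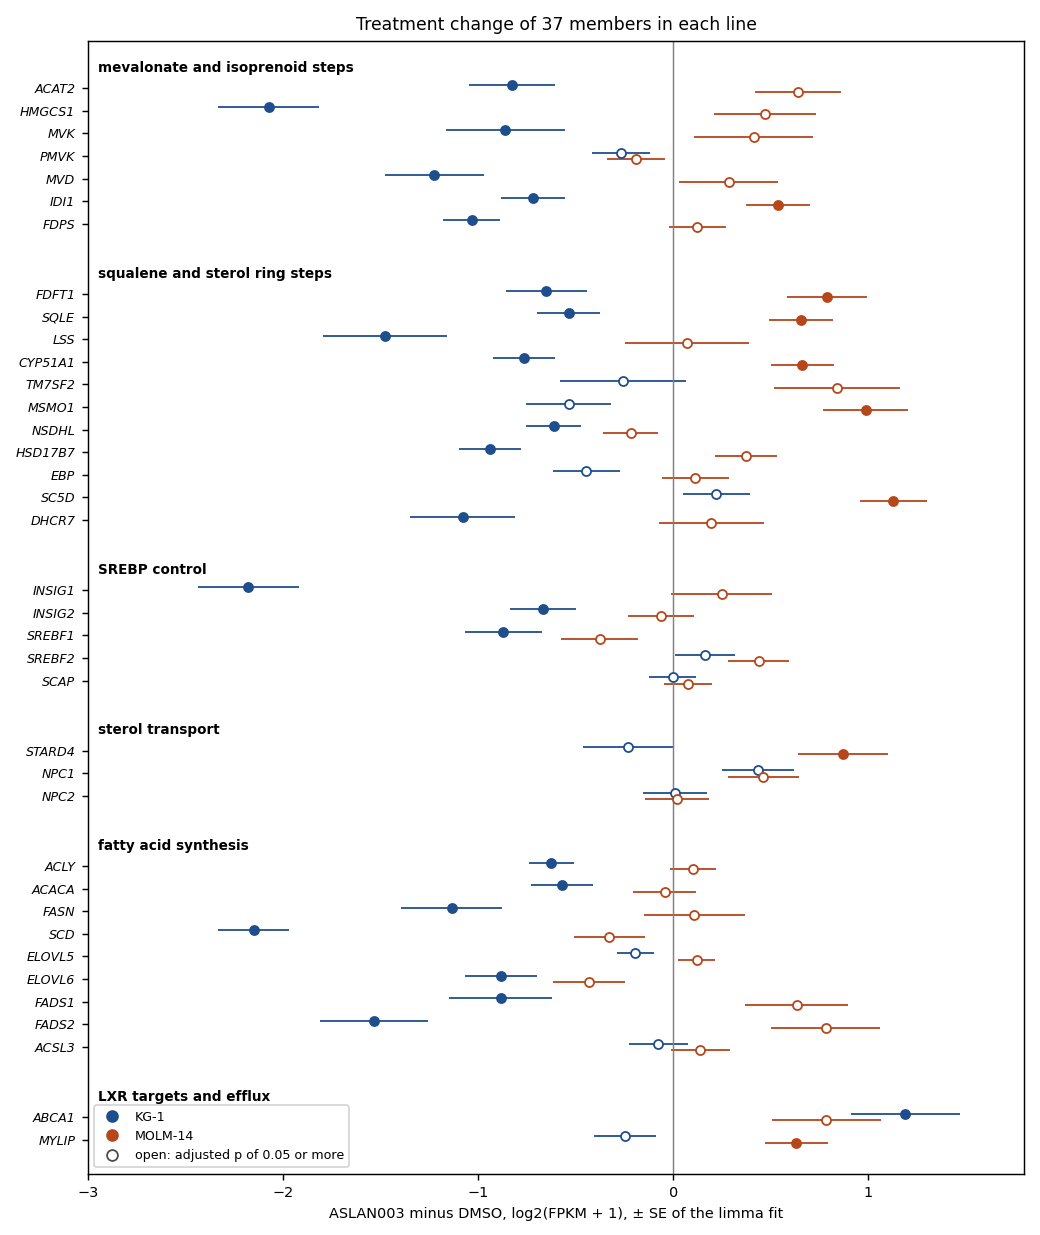
Treatment change of the 37 members, as ASLAN003 minus DMSO on the log2(FPKM + 1) scale with the SE of the limma fit, in KG-1 (blue) and MOLM-14 (orange), 3 libraries per group. Filled points have an adjusted p under 0.05, and in 36 of 37 members the KG-1 point lies left of the MOLM-14 point.

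The mevalonate and isoprenoid steps fell in KG-1, with 6 of 7 genes called lower, where 14.3% of all tested genes were. Their median log2 change was -0.86, against 0.05 for all tested genes. HMGCS1, the synthase that makes HMG-CoA (ENSG00000112972.14, chromosome 5, 43289395 to 43313512, minus strand), stood at 329.8, 294 and 196 FPKM in the KG-1 DMSO libraries and at 50.2, 59.4 and 82.5 FPKM after ASLAN003. In MOLM-14 the HMGCS1 level was 46.3, 40.1 and 51.6 FPKM in DMSO and 97.04, 53.3 and 49.95 FPKM after ASLAN003. The KG-1 groups lay far apart, and the MOLM-14 groups overlapped although replicate 1 was high. Its mean in KG-1 fell from 273 ± 69.3 to 64.03 ± 16.7 FPKM (SD, n = 3), 4.27-fold lower, a log2 change of -2.07 ± 0.26 (SE, limma adjusted p = 6.41e-05). In MOLM-14 the log2 change of 0.47 ± 0.26 did not pass (limma adjusted p = 0.267).

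ACAT2, the cytosolic thiolase that joins acetyl-CoA units (ENSG00000120437.8, chromosome 6, 159760328 to 159779055, plus strand), stood at 173, 159 and 137 FPKM in KG-1 DMSO and 71.2, 90.8 and 103 FPKM after ASLAN003. In MOLM-14 the ACAT2 values were 50.5, 50.5 and 52.1 FPKM in DMSO and 121, 75.7 and 55.98 FPKM after ASLAN003. Every treated MOLM-14 library lay above every DMSO library for ACAT2, but the treated values were spread wide and the log2 change of 0.64 ± 0.22 did not pass (limma adjusted p = 0.0748). The fall in KG-1 did pass, at -0.82 ± 0.22 (limma adjusted p = 0.0118). That call was lost without KG-1 DMSO replicate 1 (-0.75, limma adjusted p = 0.0513) or KG-1 ASLAN003 replicate 1 (-0.68, limma adjusted p = 0.0575). MVD, the decarboxylase that yields isopentenyl diphosphate (ENSG00000167508.10, chromosome 16, 88651935 to 88663161, minus strand), was at 87.8, 77.8 and 61.2 FPKM in KG-1 DMSO and 27.8, 29.1 and 38.2 FPKM after ASLAN003. Its MOLM-14 values of 36.3, 33.4 and 25.3 FPKM in DMSO and 61.99, 28.8 and 31.5 FPKM after ASLAN003 overlapped, with only replicate 1 above the DMSO range. The KG-1 change of MVD was -1.23 ± 0.25 (limma adjusted p = 0.00253).

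IDI1, the isomerase of isopentenyl diphosphate (ENSG00000067064.10, chromosome 10, 1039152 to 1049170, minus strand), went in opposite directions in the lines. It stood at 72.5, 73 and 62.9 FPKM in KG-1 DMSO against 33.6, 41.9 and 51.5 FPKM after ASLAN003. In MOLM-14 it stood at 26.5, 23.5 and 32.6 FPKM in DMSO against 44.7, 41.7 and 34.6 FPKM after ASLAN003. Neither line had overlapping groups. The log2 change was -0.72 ± 0.16 in KG-1 (limma adjusted p = 0.00479) and 0.54 ± 0.16 in MOLM-14 (limma adjusted p = 0.0484). The MOLM-14 call of IDI1 was lost without any of 8 single libraries. It was also lost in every other setting tried apart from the filter at 5 FPKM. FDPS, the synthase of farnesyl diphosphate (ENSG00000160752.14, chromosome 1, 155308748 to 155320666, plus strand), had the highest level of the sterol steps, at 464, 437 and 425 FPKM in KG-1 DMSO and 178, 208 and 269 FPKM after ASLAN003. In MOLM-14 it was at 289.6, 291 and 267 FPKM in DMSO and 372, 295 and 265 FPKM after ASLAN003, with overlap. FDPS has near-identical copies in the genome that can share its reads, so its level is uncertain. It fell by 1.03 on the log2 scale in KG-1 (limma adjusted p = 1.62e-04). Mevalonate kinase MVK fell from 25.3 ± 5.68 to 13.5 ± 3.16 FPKM in KG-1 (limma adjusted p = 0.0457). The call of MVK was lost without KG-1 DMSO or ASLAN003 replicates 1 or 2 or MOLM-14 DMSO replicates 1 or 3 (limma adjusted p = 0.0527 to 0.161), and MVK overlaps MMAB on the opposite strand by 620 bases. Phosphomevalonate kinase PMVK was the member of these steps that passed in neither line, at -0.27 in KG-1 and -0.19 in MOLM-14.

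**Figure D2:**
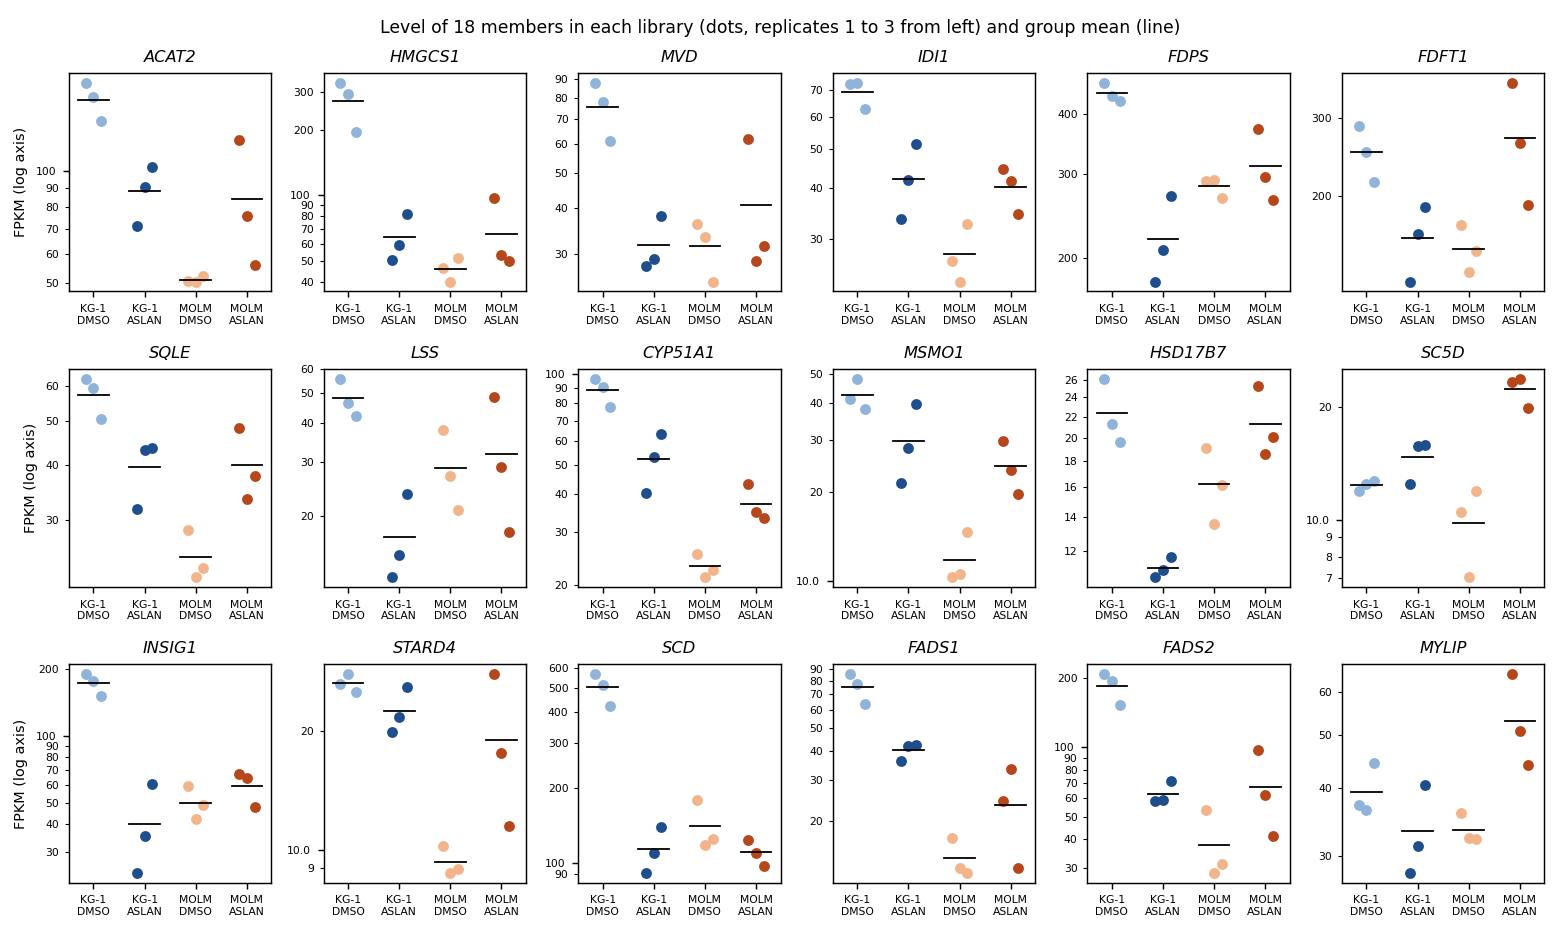
Level in FPKM (log axes that do not start at 0) of the 18 members with printed library values, in the 3 libraries of each of the 4 groups (dots, replicates 1 to 3 from left) with the group mean (line). KG-1 DMSO is the highest group for most of these genes, and MOLM-14 ASLAN003 replicate 1 is often the highest of its group.

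In the squalene and ring steps, 7 of 11 genes fell in KG-1 (median log2 change -0.61). In MOLM-14, 5 of 11 rose (median 0.66, against 0.08 for all tested genes). Of all tested genes, 14.3% were called lower in KG-1 and 9.69% higher in MOLM-14. Squalene synthase FDFT1 (ENSG00000079459.12, chromosome 8, 11795573 to 11839309, plus strand) stood at 287, 251 and 215 FPKM in KG-1 DMSO and 128, 165 and 189 FPKM after ASLAN003. Its MOLM-14 values were 172, 135 and 150.1 FPKM in DMSO and 359.6, 263 and 191 FPKM after ASLAN003. Squalene epoxidase SQLE (ENSG00000104549.11, chromosome 8, 124998497 to 125022283, plus strand), which adds the oxygen needed for ring closure, stood at 62.3, 59.3 and 50.7 FPKM in KG-1 DMSO and 31.9, 43.2 and 43.6 FPKM after ASLAN003. In MOLM-14, SQLE was at 28.5, 22.4 and 23.5 FPKM in DMSO and 48.4, 33.5 and 37.8 FPKM after ASLAN003. For these squalene genes the groups of each line did not overlap, lower after treatment in KG-1 and higher in MOLM-14. The changes passed in each line, with log2 values of -0.65 ± 0.21 and 0.79 ± 0.21 for FDFT1 (limma adjusted p = 0.0282 in KG-1 and 0.0254 in MOLM-14). For SQLE they were -0.54 ± 0.16 and 0.66 ± 0.16 (limma adjusted p = 0.0231 and 0.0201). The KG-1 calls of FDFT1 and SQLE were lost without KG-1 DMSO replicate 1 or 2 or KG-1 ASLAN003 replicate 1, and that of FDFT1 also without KG-1 ASLAN003 replicate 2, with log2 changes of -0.68 to -0.39 (limma adjusted p = 0.0594 to 0.122). Their MOLM-14 calls were lost without any of 4 (FDFT1) and 3 (SQLE) single libraries and under some other settings.

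Lanosterol synthase LSS closes the rings (ENSG00000160285.14, chromosome 21, 46188141 to 46228824, minus strand). It stood at 55.8, 46.5 and 42.2 FPKM in KG-1 DMSO and 12.7, 14.97 and 23.6 FPKM after ASLAN003, 2.82-fold lower in the mean. In MOLM-14 its values of 38.02, 27.1 and 20.99 FPKM in DMSO and 48.6, 28.9 and 17.8 FPKM after ASLAN003 overlapped widely, and the log2 changes were -1.48 ± 0.32 in KG-1 (limma adjusted p = 0.00340) and 0.07 ± 0.32 in MOLM-14 (limma adjusted p = 0.924). CYP51A1, the lanosterol demethylase (ENSG00000001630.15, chromosome 7, 92112151 to 92134803, minus strand), went in opposite directions in the lines. It was at 96.5, 90.9 and 77.6 FPKM in KG-1 DMSO and 40.2, 53.3 and 63.2 FPKM after ASLAN003, and at 25.4, 21.2 and 22.4 FPKM in MOLM-14 DMSO and 43.2, 34.9 and 33.4 FPKM after ASLAN003. The groups of each line were apart, with log2 changes of -0.76 ± 0.16 in KG-1 (limma adjusted p = 0.00286) and 0.66 ± 0.16 in MOLM-14 (limma adjusted p = 0.0180). Its MOLM-14 call was lost without any of 3 single libraries and under some other settings.

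MSMO1, the oxidase that starts removal of the ring methyl groups (ENSG00000052802.12, chromosome 4, 165327623 to 165343160, plus strand), rose in MOLM-14 and did not pass in KG-1. Its values were 41.2, 48.3 and 38.03 FPKM in KG-1 DMSO and 21.4, 28.1 and 39.8 FPKM after ASLAN003, against 10.3, 10.5 and 14.6 FPKM in MOLM-14 DMSO and 29.8, 23.8 and 19.7 FPKM after ASLAN003. The log2 change was 0.99 ± 0.22 in MOLM-14 (limma adjusted p = 0.0114) and -0.54 ± 0.22 in KG-1 (limma adjusted p = 0.0760). SC5D, the desaturase of lathosterol (ENSG00000109929.9, chromosome 11, 121292453 to 121308694, plus strand), had the largest rise among the members called in MOLM-14. It stood at 10.5, 7.06 and 11.95 FPKM in MOLM-14 DMSO and 23.2, 23.8 and 19.9 FPKM after ASLAN003, 2.26-fold higher in the mean, and at 11.99, 12.5 and 12.7 FPKM in KG-1 DMSO and 12.4, 15.7 and 15.9 FPKM after ASLAN003. The 3 treated MOLM-14 libraries were close together and all above DMSO, for a log2 change of 1.13 ± 0.17 (limma adjusted p = 0.00155). In KG-1 the value of 0.22 ± 0.17 did not pass (limma adjusted p = 0.356). SC5D was the member of the 18 sterol steps whose KG-1 change lay above 0.

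HSD17B7, the ketoreductase of the ring methyl removal (ENSG00000132196.13, chromosome 1, 162790702 to 162812817, plus strand), stood at 26.1, 21.3 and 19.6 FPKM in KG-1 DMSO and 10.7, 10.98 and 11.7 FPKM after ASLAN003. In MOLM-14 it was at 19.1, 13.5 and 16.1 FPKM in DMSO and 25.3, 18.6 and 20.1 FPKM after ASLAN003, with a slight overlap. It has a near-identical copy, so its level is uncertain, and it fell by 0.94 on the log2 scale in KG-1 (limma adjusted p = 6.21e-04). DHCR7, the reductase that makes cholesterol from its dehydro precursor, fell from 84.7 ± 17.8 to 41.2 ± 17.8 FPKM (SD, n = 3) in KG-1. NSDHL, a dehydrogenase of the methyl removal, fell from 28.3 ± 3.11 to 18.1 ± 1.01 FPKM. The sterol isomerase EBP (-0.44 in KG-1 and 0.11 in MOLM-14) and the sterol reductase TM7SF2 (-0.26 and 0.84) passed in neither line.

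Over the 18 sterol steps, 13 fell and 0 rose in KG-1. In MOLM-14, 6 rose (IDI1, FDFT1, SQLE, CYP51A1, MSMO1 and SC5D) and 0 fell. Of all tested genes, 14.3% were called lower and 19.4% higher in KG-1, and 9.69% higher and 3.33% lower in MOLM-14. The 0 falls in MOLM-14 are therefore near the share of all genes. At an unadjusted p under 0.05, limma gave 0 of the 18 sterol steps higher in KG-1 and 0 lower in MOLM-14. Their summed level was 1896 ± 232 FPKM in KG-1 DMSO and 1008 ± 197 FPKM after ASLAN003 (SD, n = 3), and 882 ± 55.4 FPKM and 1186 ± 302 FPKM in MOLM-14. The treated MOLM-14 libraries summed to 1517, 1117 and 924.5 FPKM and the DMSO libraries to 945, 839 and 862.5 FPKM, so the summed levels overlapped. Replicate 1 of MOLM-14 ASLAN003 lay above every DMSO library for 16 of the 18 genes, replicate 2 for 12 and replicate 3 for 8.

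The MOLM-14 rise rested in part on that library. Without it, 2 members (SC5D and MSMO1) were called higher and SREBF1 was called lower, and the median of the sterol steps was 0.21 in place of 0.44. The 8 calls also fell to 2 without DMSO replicate 2 and to 3 without DMSO replicate 3, and they became 13 without ASLAN003 replicate 3. The calls of CYP51A1, SQLE and MYLIP were lost without DMSO replicate 2, DMSO replicate 3 or ASLAN003 replicate 1 of MOLM-14, with log2 changes of 0.48 to 0.65 (limma adjusted p = 0.0526 to 0.0762). FDFT1 lost its call without these libraries or ASLAN003 replicate 2 (0.56 to 0.79, limma adjusted p = 0.0515 to 0.0924). STARD4 lost its call without any DMSO library or ASLAN003 replicate 1 of MOLM-14 (0.57 to 0.93, limma adjusted p = 0.0519 to 0.0810). IDI1, whose adjusted p was closest to the threshold, lost its call without MOLM-14 DMSO or ASLAN003 replicates 1 or 2, any KG-1 DMSO library or KG-1 ASLAN003 replicate 2 (0.44 to 0.54, limma adjusted p = 0.0632 to 0.164). SC5D was the MOLM-14 rise that passed in every fit tried. Scaling moved the count as well. Median centring moved the median of all genes by -0.12 in KG-1 and -0.15 in MOLM-14, and 2 members were then called higher in MOLM-14. With ribosomal protein and other abundant RNA classes left out of the scaling, 25 members were called lower in KG-1 and 7 higher in MOLM-14.

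**Figure D3:**
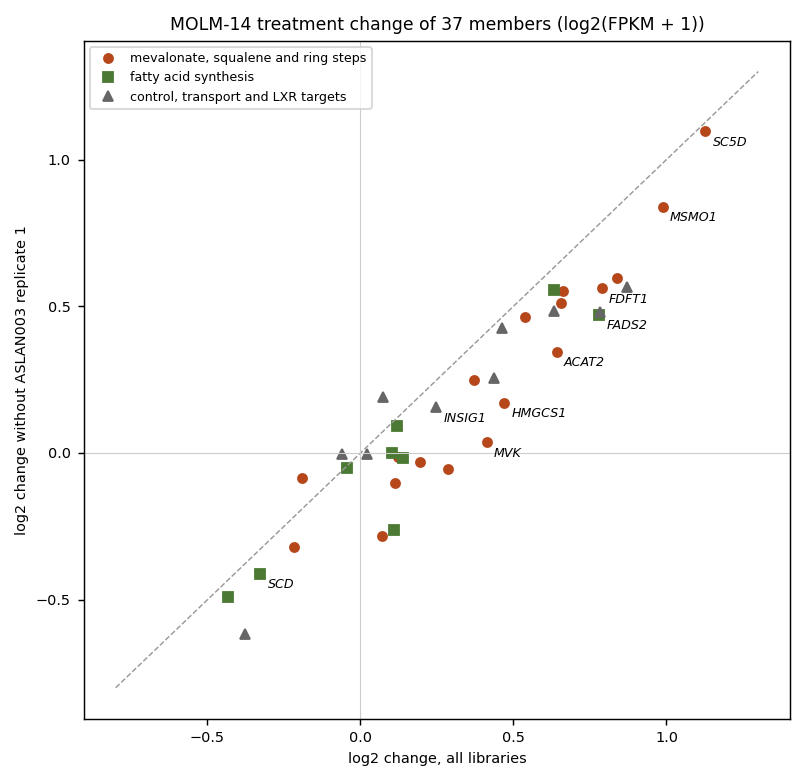
MOLM-14 log2 change of the 37 members with all libraries (x axis) against the change without ASLAN003 replicate 1 (y axis), both on the log2(FPKM + 1) scale, with the dashed line where the values are equal. Most points lie below the line, MSMO1 and SC5D stay at 0.84 and 1.10, and MVK drops from 0.41 to 0.04.

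**Figure D4:**
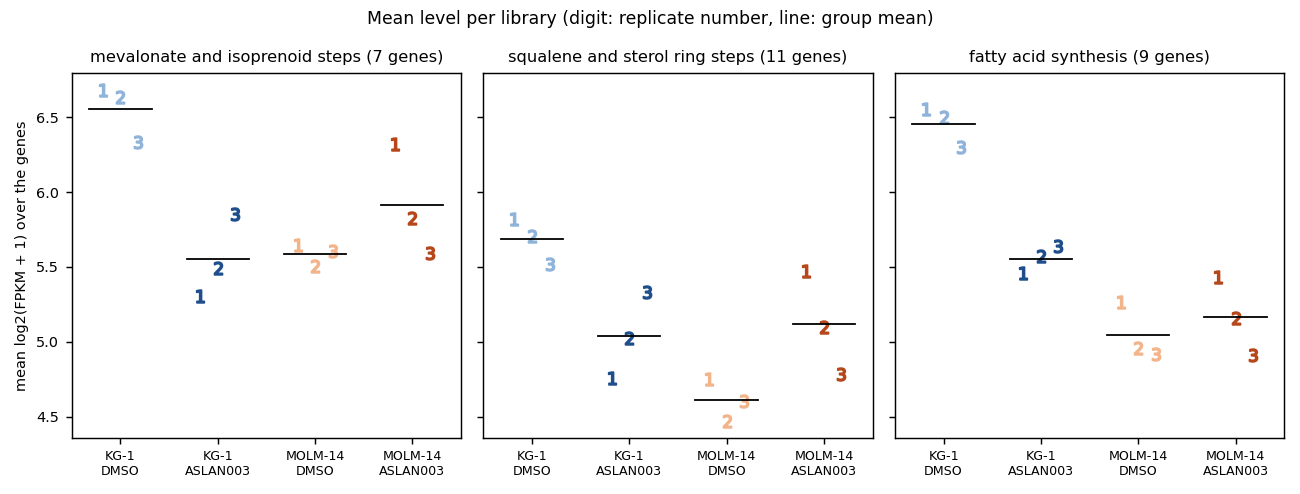
Mean log2(FPKM + 1) per library over the 7 mevalonate and isoprenoid, 11 squalene and ring and 9 fatty acid synthesis genes, with digits for replicate numbers and lines for group means. All 3 sets are highest in KG-1 DMSO, and in MOLM-14 the treated libraries are spread more widely than the DMSO libraries.

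Genes that control SREBP fell in KG-1 for 3 of 5 members, where 14.3% of all tested genes were called lower. In MOLM-14, 0 of 5 passed by limma, and 1 was higher at an unadjusted p under 0.05. That 0 is near the shares of all tested genes, 9.69% higher and 3.33% lower in MOLM-14. INSIG1, the retention protein that is itself an SREBP target (ENSG00000186480.12, chromosome 7, 155297776 to 155310235, plus strand), stood at 190.2, 177 and 152 FPKM in KG-1 DMSO and 24.2, 35.3 and 60.4 FPKM after ASLAN003. Its MOLM-14 values of 59.4, 42.1 and 48.8 FPKM in DMSO and 67.2, 64.4 and 47.6 FPKM after ASLAN003 overlapped. The KG-1 fall of 4.33-fold in the mean was the largest of all members on the log2 scale, at -2.18 ± 0.26 (limma adjusted p = 4.18e-05), and the MOLM-14 value was 0.25 ± 0.26 (limma adjusted p = 0.586). INSIG2 fell from 29.3 ± 4.49 to 18.1 ± 3.23 FPKM in KG-1 and had a mean of 6.66 FPKM in MOLM-14 DMSO. Of the transcription factors, SREBF1 fell from 62.1 ± 6.10 to 33.5 ± 3.53 FPKM in KG-1 (limma adjusted p = 0.00472). SREBF2 did not pass in either line, at 0.16 ± 0.16 in KG-1 and 0.44 ± 0.16 in MOLM-14 (limma adjusted p = 0.458 and 0.0851). The escort gene SCAP did not pass in either line.

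Among the sterol transport genes, STARD4, which moves cholesterol between membranes (ENSG00000164211.12, chromosome 5, 111496033 to 111512590, minus strand), stood at 10.2, 8.75 and 8.94 FPKM in MOLM-14 DMSO and 27.7, 17.5 and 11.5 FPKM after ASLAN003. It stood at 26.2, 27.8 and 25.1 FPKM in KG-1 DMSO and 19.8, 21.6 and 25.8 FPKM after ASLAN003, with overlap. The rise in MOLM-14 was 0.87 ± 0.23 (limma adjusted p = 0.0266), and this call was lost without replicate 1 of the treated group. The lysosomal cholesterol exporters NPC1 and NPC2 passed in neither line, at 0.43 and 0.01 in KG-1 and 0.46 and 0.02 in MOLM-14. None of the 3 transport genes was called in KG-1 by limma, where 19.4% of all tested genes were called higher and 14.3% lower. The count of 0 is near those shares. At an unadjusted p under 0.05, limma gave 1 (NPC1) higher in KG-1, as it was in MOLM-14.

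Fatty acid synthesis fell in KG-1 as the sterol steps did, with 7 of 9 genes called lower, where 14.3% of all tested genes were. The median was -0.88, against -0.74 for the sterol steps. In MOLM-14, limma called 0 of the 9, and 3 had an unadjusted p under 0.05, of which 2 were higher (FADS1 and FADS2). The lower one was ELOVL6, which stayed below 1 FPKM in every MOLM-14 library. The count of 0 is near the shares of all tested genes, 9.69% higher and 3.33% lower in MOLM-14. The median there was 0.11, against 0.44 for the sterol steps and 0.08 for all tested genes, and the difference between the branches was not tested. SCD, the desaturase that makes oleate (ENSG00000099194.5, chromosome 10, 100347124 to 100364834, plus strand), had the highest level of all members in KG-1 DMSO, while FDPS was above it in the other 3 groups. It stood at 567, 515 and 425 FPKM in KG-1 DMSO and 91.5, 109 and 139 FPKM after ASLAN003, and at 178, 118 and 125 FPKM in MOLM-14 DMSO and 124, 109.9 and 97.2 FPKM after ASLAN003. The KG-1 groups were far apart, 4.43-fold in the mean and -2.15 ± 0.18 on the log2 scale (limma adjusted p = 3.54e-06). The MOLM-14 groups overlapped, and the change of -0.33 ± 0.18 did not pass (limma adjusted p = 0.268).

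FADS1 and FADS2, the desaturases of polyunsaturated fatty acids, lie on opposite strands with annotations that overlap by 29694 bases, and whether reads were counted by strand is not given, so their values may share reads. FADS2 (ENSG00000134824.13, chromosome 11, 61792980 to 61867354, plus strand) stood at 207, 194 and 153 FPKM in KG-1 DMSO and 58.7, 59.01 and 71.1 FPKM after ASLAN003. In MOLM-14 it was at 53.2, 28.6 and 31.2 FPKM in DMSO and 97.4, 61.95 and 41.3 FPKM after ASLAN003, with overlap. FADS1 (ENSG00000149485.16, chromosome 11, 61799625 to 61829318, minus strand) stood at 85.1, 77.5 and 63.7 FPKM in KG-1 DMSO and 36.3, 42.1 and 42.3 FPKM after ASLAN003, and at 16.97, 12.6 and 12.1 FPKM in MOLM-14 DMSO and 24.5, 33.3 and 12.6 FPKM after ASLAN003. They fell in KG-1 by 1.53 (FADS2, limma adjusted p = 9.92e-04) and 0.88 (FADS1, limma adjusted p = 0.0206). The FADS1 call was lost without KG-1 DMSO replicate 1 or 2 or KG-1 ASLAN003 replicate 1 (limma adjusted p = 0.0623 to 0.0802). In MOLM-14 the values of 0.78 ± 0.28 and 0.63 ± 0.26 did not pass (limma adjusted p = 0.0843 and 0.136).

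The core enzymes of chain building fell in KG-1 too. FASN, the synthase itself, fell from 163 ± 21.3 to 73.5 ± 7.71 FPKM (SD, n = 3), ACLY, which supplies cytosolic acetyl-CoA, from 126 ± 15.3 to 81.4 ± 4.45 FPKM, and ACACA, the carboxylase of the committed step, from 32.2 ± 1.05 to 21.5 ± 3.45 FPKM. The ACACA call was lost without KG-1 DMSO replicate 2 (limma adjusted p = 0.0528) or KG-1 ASLAN003 replicate 3 (limma adjusted p = 0.0615). The elongase ELOVL6 fell in KG-1 from 10.2 to 14.3 FPKM in the DMSO libraries to 5.60 to 7.49 FPKM after ASLAN003, and lay at 0.58 to 0.72 FPKM in MOLM-14 DMSO and 0.11 to 0.32 FPKM after ASLAN003. ELOVL5, an elongase of polyunsaturated chains, and the acyl-CoA synthetase ACSL3 passed in neither line. The summed level of the 9 genes was 1240 ± 145 FPKM in KG-1 DMSO and 528 ± 41.8 FPKM after ASLAN003, and 499 ± 82.4 and 539 ± 122 FPKM in MOLM-14.

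Of the LXR targets, ABCA1 was called higher in KG-1 and MYLIP in MOLM-14. ABCA1, the pump that passes cholesterol to lipoproteins (ENSG00000165029.15, chromosome 9, 104781002 to 104928237, minus strand), rose in KG-1 from 0.06 to 0.32 FPKM in DMSO to 1.31 to 2.32 FPKM after ASLAN003, a log2 change of 1.19 ± 0.28 on the log2(FPKM + 1) scale (limma adjusted p = 0.00566), which understates the change of so low a gene. It was the single member called higher in KG-1, in a line where CD68 and CD36 were also called higher, whose part was not tested. In MOLM-14 ABCA1 had 0.42 to 1.17 FPKM in DMSO and 1.26 to 3.51 FPKM after ASLAN003, without overlap. Its change there of 0.78 ± 0.28 did not pass (limma adjusted p = 0.0860). Without single libraries that change ranged from 0.48, without ASLAN003 replicate 1, to 0.98 (limma adjusted p = 0.0472 to 0.246). The ABCA1 change was not called different between the lines (0.41 ± 0.40, limma adjusted p = 0.578). MYLIP, the ligase for lipoprotein receptors (ENSG00000007944.14, chromosome 6, 16129125 to 16148248, plus strand), stood at 35.9, 32.4 and 32.3 FPKM in MOLM-14 DMSO and 64.6, 50.8 and 44.02 FPKM after ASLAN003. The KG-1 values of 37.2, 36.4 and 44.4 FPKM in DMSO and 27.99, 31.4 and 40.6 FPKM after ASLAN003 overlapped, whereas all treated MOLM-14 libraries were higher than DMSO. The MOLM-14 rise was 0.63 ± 0.16 (limma adjusted p = 0.0215) and was lost without replicate 1 of the treated group.

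The difference between the lines was tested for every gene as the KG-1 change minus the MOLM-14 change. Of the 37 members, 18 differed, all with the lower change in KG-1, where 4.89% of all tested genes were called lower and 5.05% higher. By limma 0 members were called higher, and 0 were higher at an unadjusted p under 0.05. Sterol steps made up 12 of the 18. The median difference was -1.27 over all 18 sterol steps, against -0.73 over the 9 fatty acid genes and -0.03 over all tested genes. The members were chosen with earlier results of these data known, so these counts partly restate that choice. The largest differences were those of HMGCS1 (-2.54 ± 0.37, limma adjusted p = 0.00158), INSIG1 (-2.43 ± 0.37, limma adjusted p = 0.00194) and FADS2 (-2.31 ± 0.39, limma adjusted p = 0.00355). SC5D differed as well (-0.91 ± 0.24, limma adjusted p = 0.0338), though its difference came with a MOLM-14 rise and no call in KG-1. IDI1, FDFT1, SQLE and CYP51A1 were called in each line with opposite directions. All 4 MOLM-14 calls were lost under median centring, quantile normalization, each line fitted alone and weighted libraries, and without any of 3 to 8 single libraries. The KG-1 calls of FDFT1 and SQLE were lost without any of 4 and 3 single libraries. In all, 25 members had a change below 0 in KG-1 and above 0 in MOLM-14, 7 were below 0 in each line and 5 above 0 in each. ABCA1 was the member whose change was higher in KG-1, by 0.41 ± 0.40, which did not pass (limma adjusted p = 0.578). Of the 18 differences, 12 passed in every fit tried, and the others (ACLY, FADS1, LSS, MVD, MYLIP and SC5D) were lost when some single libraries were left out. ACLY was lost without KG-1 DMSO replicate 1 (-0.65, limma adjusted p = 0.0530). MVD was lost without KG-1 DMSO or ASLAN003 replicates 1 or 2, with adjusted p from limma of 0.0508 to 0.0586. FADS1 was lost without KG-1 DMSO replicates 1 or 2, KG-1 ASLAN003 replicate 1 or MOLM-14 DMSO replicates 2 or 3 (limma adjusted p = 0.0540 to 0.0654). LSS was lost without any library other than KG-1 ASLAN003 replicate 3, MOLM-14 DMSO replicate 1 and MOLM-14 ASLAN003 replicate 3 (limma adjusted p = 0.0528 to 0.125). SC5D was lost without any KG-1 DMSO library, KG-1 ASLAN003 replicates 1 or 2, or replicate 2 of either MOLM-14 group (limma adjusted p = 0.0568 to 0.0928). MYLIP was lost without any KG-1 DMSO library, KG-1 ASLAN003 replicates 1 or 2, or MOLM-14 DMSO replicates 2 or 3 (limma adjusted p = 0.0503 to 0.0790).

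The lines also started from different levels. In DMSO, 29 of 37 members were higher in KG-1 than in MOLM-14 and 1 was lower, where 27.1% of all tested genes were called higher and 22.1% lower. The 29 include ELOVL6, which was tested only because it is high in KG-1 (mean 12.6 FPKM in DMSO against 0.64 FPKM in MOLM-14), so its difference is a description. Among the other members HMGCS1 (2.52 ± 0.26, limma adjusted p = 5.2e-06) and FADS1 (2.37 ± 0.26, limma adjusted p = 1.02e-05) had the largest log2 differences. PMVK was the lower one, at -1.04 ± 0.15 (limma adjusted p = 8.49e-05). The median difference was 1.08 for the sterol steps and 0.87 for fatty acid synthesis, against 0.05 for all tested genes. Of the 4 groups, KG-1 DMSO had the highest mean for 27 of 37 members, among them 14 of the 18 sterol steps and all 9 fatty acid genes, and MOLM-14 DMSO the lowest mean for 21. The count of 1 lower became 2 without MOLM-14 DMSO replicate 3 and 3 without MOLM-14 ASLAN003 replicate 1. The treatment comparisons use the same DMSO libraries as this comparison, so they are not independent of it.

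Other genes of the pathway came from lists of 79 symbols in all, which like the members were chosen with earlier results of these data known. The counts from these lists may therefore partly restate that choice. The 74 that were tested were called 14 higher and 15 lower in KG-1, 12 higher and 0 lower in MOLM-14, and 3 higher and 8 lower for the difference. Over all tested genes the shares were 19.4% higher and 14.3% lower in KG-1, 9.69% and 3.33% in MOLM-14, and 5.05% and 4.89% for the difference. The count higher in KG-1 was therefore about the share of all genes and the count higher for the difference was no larger than that share, and the lists are read against the same shares. How far the MOLM-14 changes of these other genes rest on ASLAN003 replicate 1 is not given here. Among 14 other SREBP-responsive genes, 6 fell and 1 rose in KG-1 and 2 rose in MOLM-14. ACSS2, the cytosolic enzyme that turns acetate into acetyl-CoA, fell from 123 ± 24.9 to 35.95 ± 2.47 FPKM in KG-1 and rose from 11.8 ± 1.56 to 26.2 ± 6.95 FPKM in MOLM-14. Its difference between the lines, -2.79 ± 0.26 (limma adjusted p = 1.01e-04), exceeded that of any member. PCYT2, an enzyme of phosphatidylethanolamine synthesis, fell by 1.27 in KG-1. ERG28, a scaffold of the sterol demethylation enzymes, rose by 0.65 in MOLM-14. ME1, a source of NADPH, was the gene of this list that rose in KG-1, by 0.82.

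LXR receptors and other LXR targets gave 3 higher and 1 lower of 9 tested in KG-1 and 3 higher in MOLM-14, where the shares of all tested genes were 19.4% higher and 14.3% lower in KG-1 and 9.69% higher in MOLM-14. ABCA7, a lipid pump related to ABCA1, rose from 32.4 ± 2.76 to 156 ± 12.2 FPKM in KG-1 and from 15.8 ± 1.27 to 46.2 ± 29.9 FPKM in MOLM-14. SMPDL3A, a phosphodiesterase gene, rose by 1.91 in KG-1 and 1.49 in MOLM-14. PLTP, the phospholipid transfer protein, fell by 1.16 in KG-1. In sterol esterification and trafficking, 5 of 13 rose and 1 fell in KG-1, and 2 rose in MOLM-14, the fall being below the share of all tested genes. LRP1, a receptor for lipoprotein remnants, rose by 1.74 and STARD3, a late endosomal sterol carrier, by 1.37 in KG-1, where the receptor gene LRP8 fell by 0.88. LIPA, the lysosomal cholesteryl ester hydrolase, rose by 0.78 and OSBPL8 by 0.46 in MOLM-14.

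Counts in the remaining lists were near or below the shares of all tested genes in KG-1 (19.4% higher and 14.3% lower), apart from falls among the other fatty acid enzymes. Genes of SREBP processing and degradation were called 2 higher of 9 in KG-1 (MBTPS1, the first protease that cuts SREBP, 0.47, and ERLIN1 0.37) and 3 higher in MOLM-14, among them ERLIN2 (0.80) and ERLIN1 (0.65), where 9.69% of all tested genes were called higher. None of the 9 was called lower by limma. Isoprenoid branches outside sterols gave 1 higher and 2 lower of 10 in KG-1, where PGGT1B, a subunit of a prenyltransferase, rose by 0.90 and PDSS1 and COQ2 of ubiquinone synthesis fell by 0.79 and 0.66. In MOLM-14, GGPS1, the synthase of geranylgeranyl diphosphate, rose by 0.48. Of 19 other fatty acid enzymes, 2 rose and 5 fell in KG-1 and 1 rose in MOLM-14, the last below the share of all tested genes. The acyl-CoA synthetase ACSL1 rose in each line, by 1.25 and 0.92, and DGAT2, which makes triglycerides, by 0.85 in KG-1. The fatty acid binding protein FABP5 fell by 0.75 and the mitochondrial transferase MCAT by 0.60 in KG-1.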

How the data were processed

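Total RNA libraries of a stranded kit were sequenced in pairs, per the labels' protocols. Per the submitters' processing notes, the tools named are STAR 2.4.2a, RSEM 1.2.25 and bcl2fastq 2.17.1.14, and the builds hg38 and GRCh38. Annotation and use of strand: not given in the sources used here. Each gene has a deposited log2 value for each library, which by its values is log2(FPKM + 1), with FPKM rounded to 0.01 by the authors. Counts were not part of it. Depth was estimated from whole-fragment steps of low values, best at a mean fragment of 170 bases, where 75.7% to 82.3% of the 98 to 154 low values used per library lay within 0.15 fragment of a whole number. No 2 libraries were identical. Of the identifiers, 13784 (99.3%) were found in GENCODE 29, the source of the GRCh38 positions.

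With limma 3.58.1 in R 4.3.3, the 4 group means were fitted to log2(FPKM + 1) for 13353 genes (1 FPKM or more in 3 or more libraries), with a mean trend and robust eBayes. Contrasts were two-sided, adjusted by Benjamini-Hochberg over all these genes and called at an adjusted p under 0.05. The fit was tested on simulated data. The median SD between libraries was 0.129, 0.156, 0.177 and 0.271 (KG-1 DMSO, KG-1 ASLAN003, MOLM-14 DMSO, MOLM-14 ASLAN003). The members and lists were chosen with earlier results of these data known. All members are named. Library values are printed for 18 members, in each role those called most often and then with the largest change, and up to 2 called genes per direction are named from each other list. Alternatives were a pseudocount of 0.1, no filter or one at 5 FPKM, median centring, quantile normalization, rescaling without 263 abundant RNA genes, each line alone, plain eBayes, a block on the replicate number, and each library left out in turn. A fit that weights each library by its spread was chosen after seeing the data.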

Additional observations from a re-analysis of the deposited data

Results flagged for a closer look

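The treatment change of 18 members differed between the lines by limma's test of the difference itself (KG-1 change minus MOLM-14 change, 3 libraries per group), where 4.89% of all tested genes were called in this direction. In the mevalonate and isoprenoid steps the log2 difference was -1.47 for ACAT2, -2.54 for HMGCS1, -1.51 for MVD, -1.26 for IDI1 and -1.16 for FDPS. In the squalene and ring steps it was -1.44 for FDFT1, -1.19 for SQLE, -1.55 for LSS, -1.43 for CYP51A1, -1.52 for MSMO1, -1.31 for HSD17B7 and -0.91 for SC5D. INSIG1 differed by -2.43, and in fatty acid synthesis ACLY differed by -0.73, SCD by -1.82, FADS1 by -1.52 and FADS2 by -2.31. MYLIP, an LXR target, differed by -0.88. The KG-1 change was the lower for each of these genes. As the members were chosen with earlier results of these data known, their number partly restates that choice. Groups of 3 libraries are too small for a test of single outlying libraries.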

How the results depend on the processing

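No called member reversed in any alternative. In KG-1, 17 of 23 falls passed in every fit, and without single libraries the falls numbered 18 to 24 in all, 9 to 14 of the sterol steps and 5 to 7 of fatty acid synthesis. Rises in KG-1 (1) became 0 with a filter at 5 FPKM, which leaves ABCA1 untested, and 2 with each line fitted alone or with weighted libraries. The MOLM-14 rises (8 in all, 6 of the sterol steps) were 2 and 2 with median centring, with quantile normalization and with weighted libraries, and 1 and 1 with each line alone. Without single libraries they ranged from 2 to 13 and from 2 to 8. MOLM-14 falls (0) became 1 with a pseudocount of 0.1, the fatty acid gene ELOVL6, and ranged from 0 to 1 without single libraries, and fatty acid rises from 0 to 2. Differences between the lines (18 in all, 12 of the sterol steps) ranged from 12 to 23 and from 9 to 15 without single libraries. In DMSO, the 29 members higher in KG-1 ranged from 24 to 31 and the 1 lower from 1 to 3, and the lower count was 2 with a pseudocount of 0.1 or quantile normalization and 3 with weighted libraries. The sign of 11 uncalled MOLM-14 changes turned without some library. The cause of these shifts was not tested.

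Whether replicate numbers pair the libraries is not given in the labels, and with 3 libraries per group the values cannot settle it. Deviations of same-numbered DMSO and ASLAN003 libraries from their group means correlated at 0.0407, 0.0197 and 0.0318 in KG-1 and 0.1, -0.00191 and 0.0401 in MOLM-14. Those of libraries with different numbers correlated at -0.0699 to 0.0306 in KG-1 and -0.0826 to 0.0491 in MOLM-14. With the replicate number as a block, 24 members fell in KG-1, 9 rose in MOLM-14 (5 sterol steps and 1 fatty acid gene, FADS2) and 19 differed between the lines. With 3 libraries per group and 35.1 to 36.7 fragments per FPKM on 2000 bases, depth limits mainly ABCA1 and, in MOLM-14, ELOVL6.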
